A study of Mus musculus with 22 samples.

Results

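Fn1, Tnc, Postn, Spp1, Thbs1, Lox, Sparc, Tgfb1 and Tgfbi code for proteins that build a wound matrix, that crosslink it, or that carry or answer the TGF-beta signal, and these 9 genes were chosen by symbol. They make up 9 of the 52526 distinct symbols with deposited values, and all 9 were among the 15138 genes that could be tested. The tissue was the mammary fat pad of female C57BL/6J mice aged 7 to 8 weeks, housed for 2 weeks either with a wheel to run on or with only its shelter hub. Liposomes were injected into a vein 24 h before engraftment and again at engraftment, holding either PBS or clodronate, which is toxic to macrophages and other cells that engulf the liposomes. At engraftment 100000 EO771-luciferase cells, a mammary carcinoma line from C57BL/6 mice that carries luciferase, were placed into the left mammary fat pad, and the tissue was collected 24 h later for 3′ sequencing (QuantSeq). The 22 mice, each its own library, formed 4 groups: 6 control mice with PBS liposomes, 6 wheel-running mice with PBS liposomes, 5 control mice with clodronate liposomes and 5 wheel-running mice with clodronate liposomes. Since the engrafted cells are of the same species as the host, the reads of host and tumour cells could not be told apart for any of the 9 genes.

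In healing skin and in the stroma of tumours, fibronectin and tenascin C form a provisional matrix on which cells migrate, and platelets, macrophages and fibroblasts release TGF-beta into it in a latent form. Freed TGF-beta binds a receptor complex that phosphorylates SMAD proteins, and these enter the nucleus and switch on matrix genes, among them fibronectin, periostin and the TGF-beta-induced protein itself. Lysyl oxidase then crosslinks collagen and elastin, SPARC helps to arrange collagen fibres, and osteopontin, often made by macrophages in wounds, binds integrins on cells that enter the site.

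Promoter sequences from RefSeq were read for 6 of the 9 members, with 9 starts between them (build GRCm38.p6), and those of Fn1, Thbs1 and Lox were not analysed here. The letters CAGAC, which hold the core that SMAD proteins read, were searched on both strands (GTCTG on the other) in the 250 bases before each start. They were present in 5 of the 6 members and in 6 of the 9 sequences, and 42.2% of all 32851 promoters of that length held them. The SMAD palindrome GTCTAGAC was in 0 of the 9 sequences, against 0.167% of all promoters, and the AP-1 letters TGANTCA were in 0 of the 9, against 6.75%. The promoters of Tnc (chr4:64046937-64047186, minus strand), Sparc (chr11:55420081-55420330, minus strand) and Tgfbi (chr13:56609336-56609585, plus strand) are shown because Tgfbi is named for its induction by TGF-beta, Sparc was the most abundant member and Tnc gave the largest difference between the wheel effects described further on. Each reads 5′ to 3′ towards the start, and the capitals mark CAGAC or GTCTG.
Tnc: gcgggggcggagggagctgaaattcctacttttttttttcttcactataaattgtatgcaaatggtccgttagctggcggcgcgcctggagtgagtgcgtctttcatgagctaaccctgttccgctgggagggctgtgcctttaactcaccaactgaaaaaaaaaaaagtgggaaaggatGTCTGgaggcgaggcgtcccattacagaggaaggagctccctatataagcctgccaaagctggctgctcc
Sparc: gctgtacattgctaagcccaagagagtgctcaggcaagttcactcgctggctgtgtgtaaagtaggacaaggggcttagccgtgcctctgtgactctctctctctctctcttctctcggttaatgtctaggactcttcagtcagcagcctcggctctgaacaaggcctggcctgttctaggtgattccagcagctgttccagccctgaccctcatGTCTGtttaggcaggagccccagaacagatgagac
Tgfbi: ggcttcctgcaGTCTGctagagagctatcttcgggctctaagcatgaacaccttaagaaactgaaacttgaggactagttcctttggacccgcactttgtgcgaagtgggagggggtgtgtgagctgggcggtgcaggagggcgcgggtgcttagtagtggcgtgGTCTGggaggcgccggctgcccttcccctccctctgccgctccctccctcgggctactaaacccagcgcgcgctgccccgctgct
The match lay 70 bases before the start in Tnc and 35 bases before it in Sparc, and in Tgfbi the matches lay 85 and 239 bases before it. Tnc had another start, and the 250 bases before it (chr4:64047016-64047265, minus strand), which border the annotated gene, held no match. The match shown for Tnc lay within the annotated gene, which ends at 64047015. All of the Sparc sequence shown also lay within its annotated gene (55394500 to 55423183). The last part of the Tgfbi sequence shown, which ends at 56609585, lay within its annotated gene too, which starts at 56609523. Spp1 held 2 matches before its first start, 5 and 33 bases away, and 1 before another start within its annotated gene, 41 bases away. Postn held 1 match, 191 bases before the first of its starts, and Tgfb1 held none. Such a match is a description of the letters and says nothing on whether a SMAD protein was bound there.

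The values are CPM, the reads of a gene scaled to the total of all reads of its library, and the values show 1 as their lowest, so that every value below 1 CPM is taken to have been set to 1, which is called the floor here. Libraries held 13256467 to 20484578 reads, with a median of 16293026, so the floor stood for 13 to 20 reads, and 57.2% to 64.5% of the reads of a library fell in genes. The share was lowest in wheel-running mice with clodronate, at 57.2% to 58.5%, against 60.4% to 64.5% in control and 58.3% to 63.7% in wheel-running mice with PBS and 58.7% to 63.0% in control mice with clodronate. With values scaled to the reads in genes, the clodronate minus PBS difference in wheel-running mice went from -0.62 to -0.55 on the log2 scale for Fn1, from -0.58 to -0.51 for Sparc and from -0.50 to -0.44 for Lox, and none of these was called by limma in either scaling. Spp1 was at the floor in 10 of the 22 mice, and the other 8 members were above it in all 22. A read count of this kind samples 1 site near the 3′ end of each transcript, so that CPM compares transcripts between genes roughly without a correction for length. On that scale Sparc had the highest level, with a median of 1148 CPM over the 22 mice. Postn followed with 98.7 CPM and Fn1 with 73.8 CPM, then Tgfbi with 35.5 CPM, Lox with 18.0 CPM and Thbs1 with 9.13 CPM. Tnc at 5.04 CPM, Tgfb1 at 4.97 CPM and Spp1 at 1.41 CPM closed the order. Sparc lay above Postn in 22 of 22 mice and Fn1 above Tgfbi in 21 of 22. Postn lay above Fn1 in 17 of 22, and the mean log2 difference between these neighbours, 0.35, was smaller than its SD of 0.39. Thbs1 lay above Tnc in 15 of 22 mice, with a mean log2 difference of 0.61 and an SD of 1.17. Tnc and Tgfb1 did not separate, since Tnc was the higher of the pair in 12 of 22 mice.

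The members differed in how far mice of the same group lay apart. The SD within groups, on the log2 scale, was 0.28 for Fn1, 0.41 for Sparc, 0.49 for Postn and 0.51 for Tgfb1. It was 0.61 for Tgfbi, 0.62 for Thbs1, 0.66 for Lox, 0.84 for Tnc and 0.96 for Spp1. The highest mouse had 2.64 times the Fn1 level of the lowest, and the same ratio was 14.5 for Tnc.

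**Figure D1:**
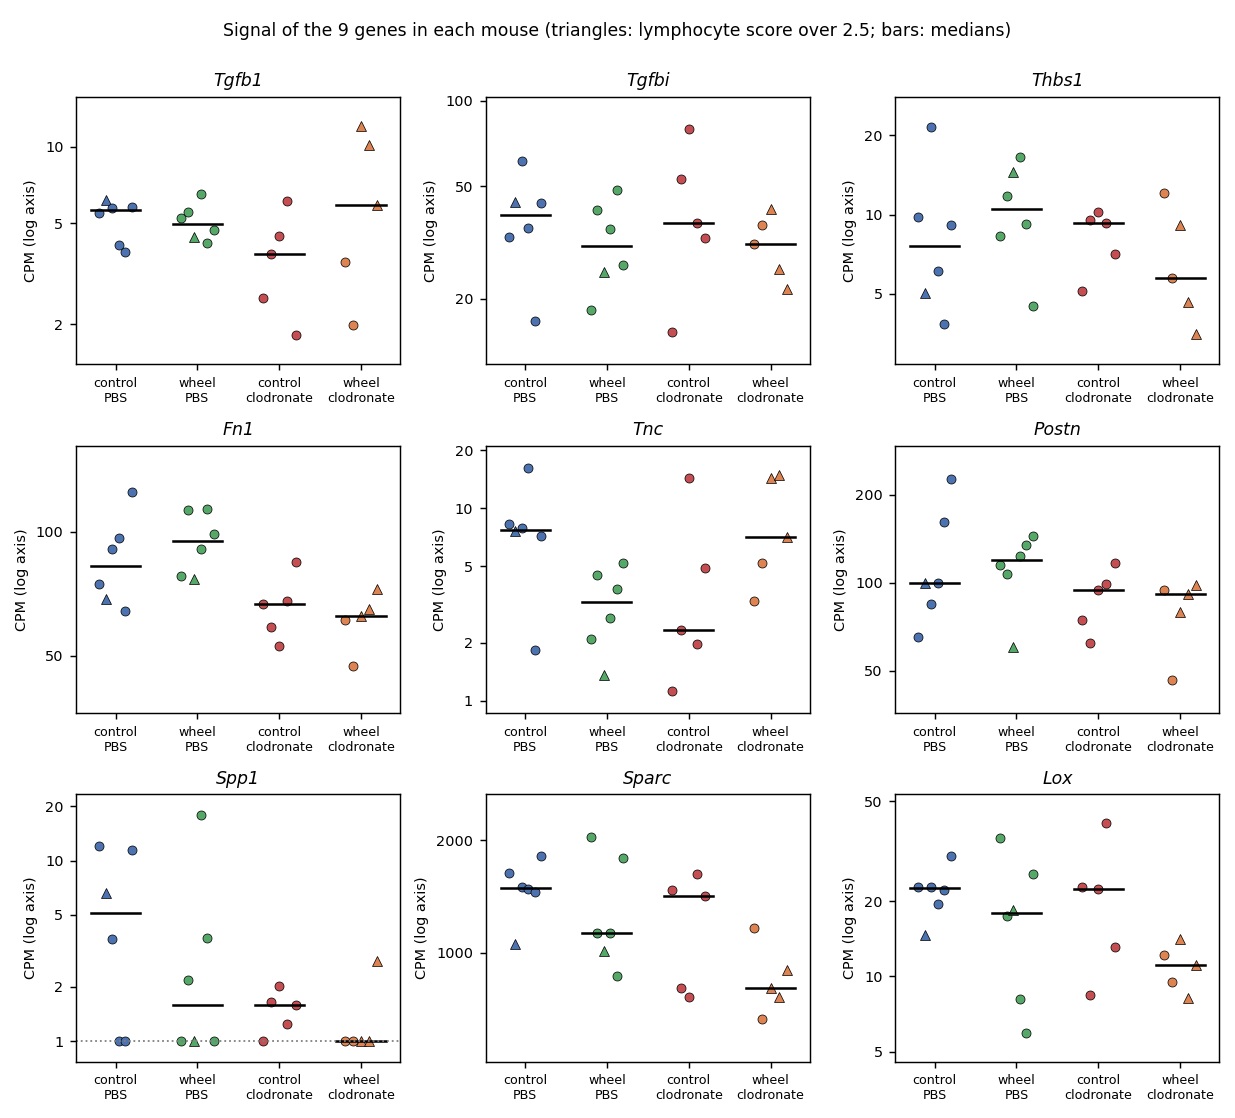
CPM of each of the 9 members (log axis) in each of the 22 mice, by group; bars are medians, triangles are mice with a high lymphocyte score, 1 point is 1 mouse and 1 CPM is the floor. Sparc lies between 666 and 2041 CPM, Spp1 is at the floor in 10 mice, and in Fn1 the wheel-running mice with clodronate all lie below those with PBS.

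Tgfb1 codes for the TGF-beta 1 ligand, which is secreted bound to its latency peptide. In control mice with PBS it ranged from 3.86 CPM to 6.15 CPM, with a median of 5.62, and in wheel-running mice with PBS from 4.18 to 6.53 CPM, with a median of 4.97. The 5 control mice with clodronate had 2.54, 3.78, 4.46, 6.12 and 1.81 CPM, and the 5 wheel-running mice with clodronate had 3.51, 1.98, 12.1, 10.1 and 5.91 CPM. The PBS mice lay close together, while the clodronate mice reached both below and above all of them: 5 of 10 were lower than the lowest PBS mouse and 2 of 10 higher than the highest. The levels above 10 CPM belonged to wheel-running mice 3 and 4 with clodronate, and these libraries stood apart in lymphocyte genes too.

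The lymphocyte list held 11 markers, such as Cd79a and Cd3e, and its score was the mean log2(CPM + 1) over the list. It was 5.56, 5.71 and 4.94 in wheel-running mice 3, 4 and 5 with clodronate, 4.37 in control mouse 2 with PBS and 4.57 in wheel-running mouse 3 with PBS, and 1.43 or less in the other 17 mice. Among the 5 lymphocyte-rich mice, Tgfb1 was at 5.91 CPM in wheel-running mouse 5 with clodronate. It was at 6.15 CPM in control mouse 2 with PBS and at 4.43 CPM in wheel-running mouse 3 with PBS. The summed level of the list reached 731 CPM, with Ms4a1, at up to 146 CPM, its most abundant gene, and in control mice with clodronate 6 to 11 of the 11 markers were at the floor. The wheel minus control difference of Tgfb1 under clodronate was 0.58 ± 0.34 (SE) on the log2 scale over all mice, and -0.30 without those 5 mice, which left 2 wheel-running mice with clodronate. The clodronate minus PBS difference in wheel-running mice likewise went from 0.15 to -0.75, and the part of the lymphocyte-rich tissue in the Tgfb1 values was not tested. In bulk tissue a change in the number of cells of a type and a change in RNA per cell cannot be told apart, for Tgfb1 as for the other 8 genes.

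Thbs1 codes for thrombospondin 1, a glycoprotein of platelets and stroma that can free TGF-beta from its latent complex. Over the 22 mice it ranged from 3.52 to 21.5 CPM, and the medians of the groups were 7.61 CPM in control and 10.5 CPM in wheel-running mice with PBS, 9.27 CPM in control and 5.76 CPM in wheel-running mice with clodronate. The groups overlapped in every comparison, and the highest value belonged to control mouse 3 with PBS. The platelet list was low throughout, with 3 to 5 of its 6 markers at the floor in every mouse and Pf4 its most abundant gene at 7.58 to 58.9 CPM. The interaction, which is the wheel effect under clodronate minus that under PBS, was -0.58 ± 0.53 (SE) for Thbs1.

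Tgfbi codes for the TGF-beta-induced protein, an adhesion protein that binds collagen and integrins. It ranged from 15.2 to 79.5 CPM, and both ends of the range were control mice with clodronate, mice 1 and 3. The group means were 39.0 ± 14.8 CPM (SD, n = 6) in control and 32.3 ± 11.3 CPM (SD, n = 6) in wheel-running mice with PBS, 43.5 ± 24.2 CPM (SD, n = 5) in control and 31.2 ± 7.99 CPM (SD, n = 5) in wheel-running mice with clodronate. Of the 9 members Tgfbi had the smallest mean difference between clodronate and PBS, 0.02 with a 95% interval of -0.47 to 0.52 on the log2 scale. Without the 5 mice with a muscle score above 7, described further on, it was -0.26, and that of Lox was then 0.022. In control mice alone the Tgfbi difference went from 0.059 to -0.44 without them.

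Fn1 codes for fibronectin, the first scaffold of a wound matrix. In control mice with PBS it ranged from 64.3 to 125 CPM, with a median of 82.7 CPM, and in wheel-running mice with PBS from 76.7 to 114 CPM, with a median of 94.8 CPM. The 5 control mice with clodronate had 66.9, 58.6, 52.8, 67.8 and 84.6 CPM, and the 5 wheel-running mice with clodronate had 61.0, 47.2, 62.3, 64.8 and 72.8 CPM. All 5 wheel-running mice with clodronate lay below all 6 with PBS, and of the 9 members Fn1 was the 1 gene with a gap between these groups, which 191 of the 15138 genes tested had (1.26%). In control mice the groups overlapped: 2 of 5 clodronate mice lay below the lowest PBS mouse and 3 of 6 PBS mice above the highest clodronate mouse. Over both activities all 10 clodronate mice lay below the PBS median of 90.9 CPM, and 7 of 12 PBS mice lay above the highest clodronate mouse.

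The mean difference of Fn1 between clodronate and PBS was -0.49 ± 0.12 (SE) on the log2 scale, with a 95% interval of -0.74 to -0.24, which is -28.8% in fold terms. Its unadjusted p was 0.000403, place 71 among 15138 genes, and its adjusted p of 0.0836 missed the threshold of 0.05. In the wheel-running mice alone the difference was -0.62 ± 0.17 (SE), with an adjusted p of 0.187, and in the control mice alone it was -0.37 ± 0.17 (SE), with an adjusted p of 0.688. These differences were not shown to be unequal, since the interaction for Fn1 was -0.25 ± 0.24 (SE) with an adjusted p of 0.868. For the wheel the mean difference of Fn1 was 0.03, with a 95% interval of -0.22 to 0.27. The Fn1 value stayed negative when any of the 22 mice was left out, from -0.54 to -0.43.

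Tnc codes for tenascin C, a large glycoprotein that appears in wounds and tumour stroma and loosens cell adhesion to fibronectin. In control mice with PBS it ranged from 1.84 to 16.3 CPM, with a median of 7.74 CPM, and in wheel-running mice with PBS from 1.35 to 5.22 CPM, with a median of 3.26 CPM. The 5 control mice with clodronate had 1.12, 2.32, 14.4, 1.98 and 4.90 CPM, and the 5 wheel-running mice with clodronate had 3.31, 5.18, 14.3, 14.9 and 7.09 CPM. Among PBS mice the control group was mostly the higher, with 5 of 6 above the highest wheel-running mouse, whereas among clodronate mice all 5 wheel-running mice lay above the control median. Every pair of groups overlapped, and control mouse 3 with clodronate, at 14.4 CPM, stood well above the other 4 control mice with clodronate.

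The wheel minus control difference of Tnc was -1.0 ± 0.46 (SE) on the log2 scale with PBS and 0.96 ± 0.51 (SE) with clodronate, and neither passed, with adjusted p values of 0.987 and 0.544. The interaction was 1.96 ± 0.69 (SE), with a 95% interval of 0.54 to 3.38. Its unadjusted p was 0.00897, place 221 of 15138, and its adjusted p was 0.613. Without the 5 lymphocyte-rich mice, 3 of them wheel-running with clodronate, the interaction was 1.01 and the wheel difference under clodronate was 0.19. Without the 5 mice with a muscle score above 7, described further on, both moved the other way. They were then larger than over all 22 mice, with 2 control mice with clodronate left. The part of either kind of library in the Tnc values was not tested beyond this. The list of 8 genes of dividing cells had 8 of 8 negative and a median of -0.83 for wheel against control with PBS, beside 63.8% of all genes. For the interaction it had 8 of 8 positive and a median of 1.00, where 40.8% of all genes were negative. Tnc had the same signs, and limma called 0 of the list, with 0 at an unadjusted p under 0.05. With clodronate 5 of 8 of the list were positive for wheel against control, with a median of 0.096, where Tnc was at 0.96. The skeletal muscle list also had 8 of 8 negative with PBS (median -1.97) and 8 of 8 positive for the interaction (0.72), but 8 of 8 negative with clodronate. The lymphocyte list had 11 of 11 positive for the interaction (2.25), but 8 of 11 positive with PBS. From mouse to mouse Tnc had an r of 0.56 with the score of dividing cells (rho 0.45, permutation p 0.0135, adjusted p 0.134), which did not pass. Its r was 0.50 with the platelet, 0.47 with the macrophage and -0.49 with the smooth muscle and pericyte score. Their adjusted permutation p values were 0.176, 0.178 and 0.176, so these did not pass either.

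Postn codes for periostin, a matrix protein that fibroblasts secrete. Control mice with PBS had a median of 99.7 CPM and wheel-running mice with PBS 119 CPM, against 94.1 CPM in control and 91.5 CPM in wheel-running mice with clodronate. The range over all mice was 46.6 to 226 CPM, from wheel-running mouse 2 with clodronate to control mouse 6 with PBS. Of the wheel-running mice 5 of 6 with PBS lay above all 5 with clodronate, and the remaining PBS mouse, at 60.4 CPM, lay within them. The mean difference between clodronate and PBS was -0.42 ± 0.19 (SE), with an adjusted p of 0.462.

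Spp1 codes for osteopontin, a secreted phosphoprotein that binds integrins and CD44. Among control mice with PBS it was at the floor in 2 of 6 and reached 12.1 CPM, with a median of 5.15 CPM, and among wheel-running mice with PBS it was at the floor in 3 of 6 and reached 17.9 CPM, with a median of 1.59 CPM. The control mice with clodronate had 1.00, 1.65, 2.02, 1.24 and 1.58 CPM, and of the wheel-running mice with clodronate 4 were at the floor and mouse 5 had 2.77 CPM. All 10 clodronate mice thus had 2.77 CPM or less, and 6 of the 12 PBS mice had more. The mean difference between clodronate and PBS was -0.89 ± 0.37 (SE), with a 95% interval of -1.67 to -0.12, an unadjusted p of 0.0254 and an adjusted p of 0.385. Because 10 of 22 values were at the floor, the size of this difference depended on the floor and is no measure of how far Spp1 lay below it.

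Sparc codes for a collagen-binding glycoprotein that is abundant in fat and in vessels. In control mice with PBS it ranged from 1059 to 1817 CPM, with a median of 1493 CPM, and in wheel-running mice with PBS from 870 to 2041 CPM, with a median of 1129 CPM. The 5 control mice with clodronate had 1470, 805, 764, 1628 and 1417 CPM, and the 5 wheel-running mice with clodronate had 1168, 666, 804, 762 and 901 CPM. The wheel-running mice with clodronate were the lowest group, and 9 of the 10 clodronate mice lay below the PBS median of 1471 CPM. The mean difference between clodronate and PBS was -0.47 ± 0.17 (SE), with an unadjusted p of 0.0125 and an adjusted p of 0.307. Of the adipocyte list 7 of 8 genes were negative there, with a median of -0.21. Of the endothelium list 7 of 8 were, with a median of -0.22, beside 57.4% of all genes. In wheel-running mice 8 of 8 adipocyte genes were negative (median -0.35), and in control mice 5 of 8 (median -0.099). The part of these tissues in the Sparc values was not tested beyond the relations given further on.

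The low Sparc values in control mice with clodronate, mice 2 and 3, came from libraries rich in skeletal muscle RNA, as was that of mouse 5, which had 1417 CPM. The muscle list of 8 genes had scores of 1.63 to 11.2, its summed level ran from 19.5 to 23537 CPM and its most abundant gene, Acta1, from 5.46 to 6082 CPM. The lowest Sparc value of all, 666 CPM in wheel-running mouse 2 with clodronate, had a muscle score of 10.0, while wheel-running mice 4 and 5 with clodronate had 762 and 901 CPM with scores of 1.97 and 2.00, and control mouse 3 with PBS had 1502 CPM with a score of 8.21. The score was above 7 in 5 mice, of which 3 were control mice with clodronate, 1 was a wheel-running mouse with clodronate and 1 a control mouse with PBS. Without these 5 mice the clodronate minus PBS difference of Sparc in control mice was 0.08 in place of -0.35, with 2 control mice with clodronate left, and that of Lox was 0.50 in place of -0.18. The part of muscle tissue in these values was not tested beyond the relations given further on.

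Lox codes for lysyl oxidase, the enzyme that starts the crosslinking of collagen and elastin. In control mice with PBS it ranged from 14.6 to 30.1 CPM, with a median of 22.5 CPM, and in wheel-running mice with PBS from 5.94 to 35.7 CPM, with a median of 18.0 CPM. The 5 control mice with clodronate had 22.7, 8.41, 22.4, 41.0 and 13.1 CPM, and the 5 wheel-running mice with clodronate had 12.2, 9.47, 14.2, 8.20 and 11.1 CPM. Wheel-running mice were mostly low, with 9 of 11 below the control median of 22.4 CPM, and the highest mouse of all was control mouse 4 with clodronate. Lox had the largest mean difference between wheel and control of the 9 members, -0.59 ± 0.26 (SE), with a 95% interval of -1.13 to -0.04, an unadjusted p of 0.0360 and an adjusted p of 0.600. In the fibroblast list 7 of 8 genes were negative for the mean wheel effect, with a median of -0.23, beside 57.3% of all genes tested. For wheel against control with clodronate 8 of 8 were negative with a median of -0.30, where Lox was at -0.75, and with PBS 5 of 8 with a median of -0.077, close to -0.085 over all genes, where Lox was at -0.43. The skeletal muscle list had 8 of 8 negative and a median of -1.55 for the mean wheel effect, and limma called 0 genes of either list there, 1 fibroblast gene having an unadjusted p under 0.05. The lymphocyte list went the other way, with 11 of 11 positive and a median of 1.31, and limma called 0 of its genes while 7 had an unadjusted p under 0.05. The part of these tissues in the Lox difference was not tested.

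The comparisons asked whether running on a wheel, with PBS or with clodronate liposomes, altered the early response of the fat pad to tumour cells, and whether clodronate itself did. They share groups: each of the 4 simple comparisons shares 1 group with each of 2 others, so their values are set side by side and not counted as repeats. For wheel against control with PBS, limma called 0 of 9 members, against 0% of the 15138 genes tested (744 genes had an unadjusted p under 0.05). Of the members 7 of 9 were negative, beside 63.8% of all genes, and 1, Tnc, had an unadjusted p under 0.05. The median log2 change of the members was -0.22 beside -0.085 over all genes. For wheel against control with clodronate, 0 of 9 members were called, against 0.00661% of all genes, and 0 members had an unadjusted p under 0.05, while 1579 genes did. The median of the members was -0.13 there, and that of all genes 0.0045. With 1 mouse left out, 0 to 240 genes were called there.

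For clodronate against PBS in control mice, limma called 0 of 9 members, against 0% of all genes (1058 genes had an unadjusted p under 0.05), and 2 members, Fn1 and Spp1, had an unadjusted p under 0.05. In wheel-running mice 0 of 9 members were called, against 0.00661% of all genes, and 3 members had an unadjusted p under 0.05, Fn1 and Sparc negative and Tnc positive, beside 1759 genes. The median of the members was -0.36 in control mice and -0.50 in wheel-running mice, beside -0.10 and 0.00020 over all genes. With 1 mouse left out, 0 to 38 genes were called in control mice and 0 to 51 in wheel-running mice. Over the mean of both activities 0 of 9 members were called by limma, against 0.205% of all genes, which were 31 genes, all of them lower with clodronate, and 1579 genes had an unadjusted p under 0.05. There 7 of 9 members were negative, 4 of them (Fn1, Postn, Spp1 and Sparc) with an unadjusted p under 0.05, and the median of the members was -0.34 beside -0.042 over all genes, of which 57.4% were negative. For this mean the number of called genes was 0 without the 5 lymphocyte-rich or the 5 muscle-rich mice. It was 11 with the replicate number as a block and 12 to 146 with 1 mouse left out.

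For the mean of the wheel effect, limma called 0 of 9 members, against 0% of all genes (1224 genes had an unadjusted p under 0.05), and 1 member, Lox, had an unadjusted p under 0.05. For the interaction limma called 0 of 9 members as well, against 0% of all genes (1147 genes had an unadjusted p under 0.05), and 1 member, Tnc, had an unadjusted p under 0.05. The median of the members was -0.081 for the wheel and -0.11 for the interaction, beside -0.039 and 0.091 over all genes.

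**Figure D2:**
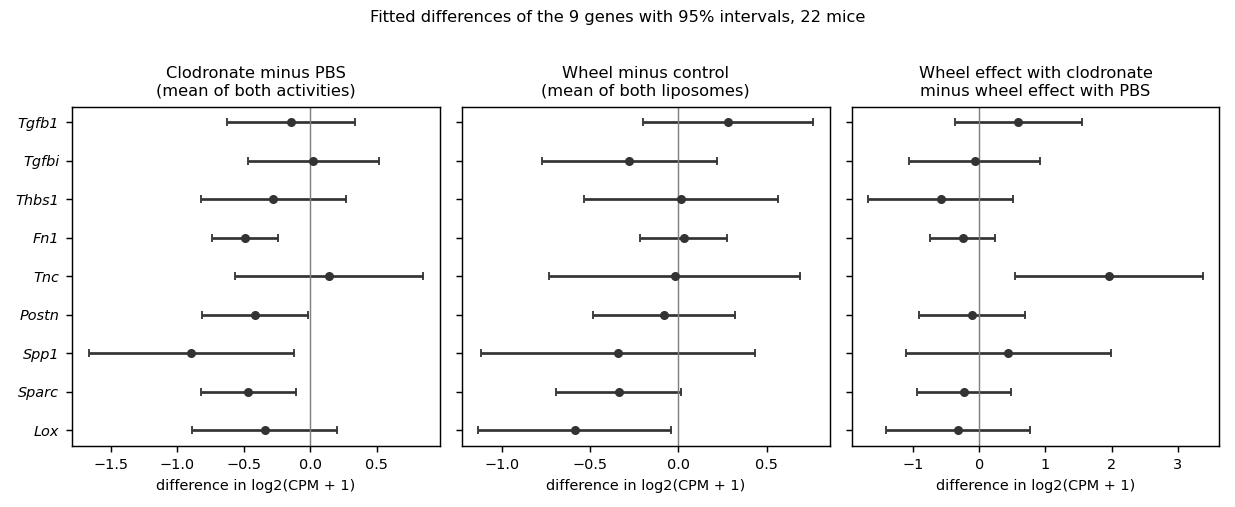
log2 change of each member for the mean clodronate, mean wheel and interaction contrasts, with 95% intervals from limma. Fn1 has the narrowest interval of the 9 members in each contrast, with -0.74 to -0.24 for the mean of clodronate, and the Tnc interaction spans 0.54 to 3.38.

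From mouse to mouse, with the group means removed, 135 relations were computed over the 22 mice: 36 between members, 81 between a member and a marker score and 18 between a member and the reads of the library or the share of them in genes. Of the 36 pairs of members 0 passed the adjusted threshold in a two-sided permutation test, and 24 of the 36 had a positive Pearson r, with a median of 0.12. Lox and Sparc had the largest r, 0.69 (Spearman's rho 0.63, permutation p 0.00657 and 0.0122), with an adjusted p of 0.0806 for r. Thbs1 and Tgfbi had an r of 0.59 (rho 0.56, permutation p 0.00361 and 0.00927), also with an adjusted p of 0.0806. Tnc and Tgfbi had an r of 0.59 too (rho 0.42, permutation p 0.0169 and 0.0754), which was 0.34 without the 2 mice farthest from the median of Tnc and so rested on them. The largest negative r was that of Sparc and Tgfbi, -0.56 (rho -0.58, permutation p 0.0178 and 0.0158), with an adjusted p of 0.134.

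**Figure D3:**
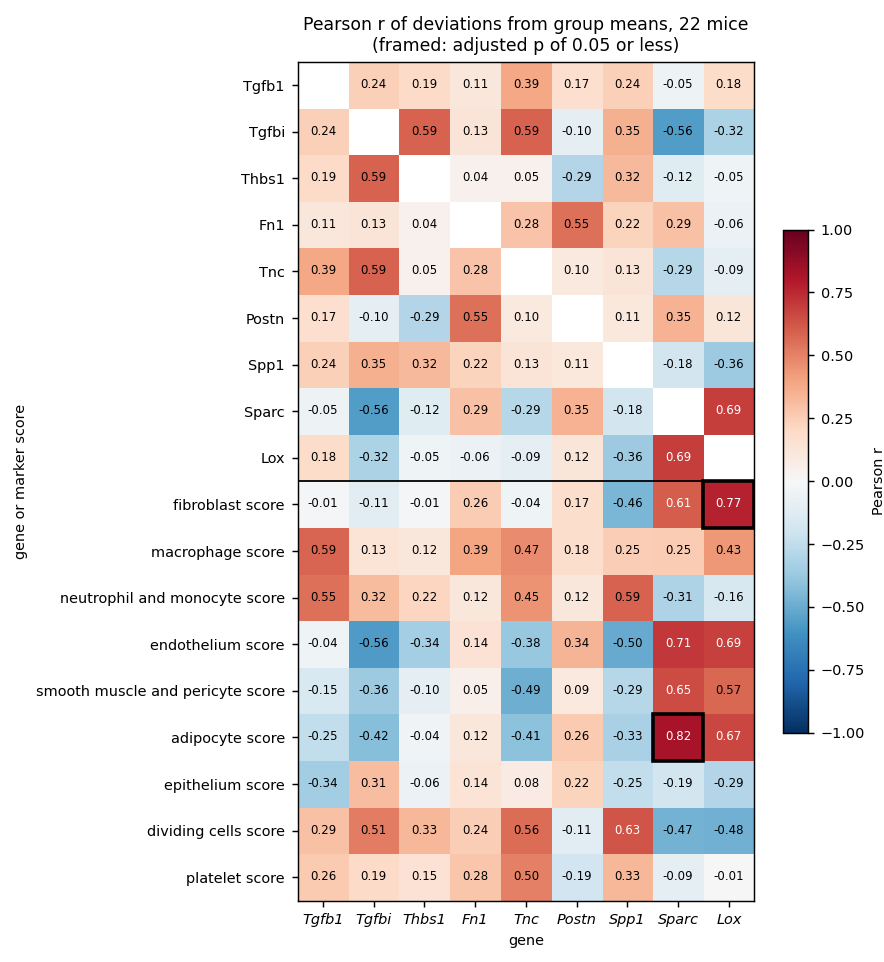
Pearson r over 22 mice, group means removed, between the 9 members and between members and marker scores; colour gives r and frames mark an adjusted p of 0.05 or less. The largest r among members is 0.69 for Lox and Sparc.

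Among the 81 relations with marker scores 2 passed. Lox varied with the fibroblast score, which averages 8 genes such as Pdgfra, Dpt and Col6a3, with an r of 0.77, a rho of 0.73 and an r of 0.75 without the 2 mice farthest from the median score (permutation p 0.00012 and 0.00048, adjusted p 0.0162 and 0.0324). Sparc did so with the adipocyte score, which averages 8 genes such as Adipoq and Plin1, with an r of 0.82, a rho of 0.83 and an r of 0.77 without the 2 farthest mice (permutation p 0.00027 and 0.00027, adjusted p 0.0182 and 0.0324). Without the lymphocyte-rich mice the r values were 0.80 and 0.83 over 17 mice, with adjusted p values of 0.103 and 0.0850, so that neither passed there. Sparc also had an r of 0.71 with the endothelium score, 0.65 with the score of smooth muscle and pericytes and 0.61 with the fibroblast score, and Lox had an r of 0.69 with the endothelium and 0.67 with the adipocyte score. All 5 had an adjusted p of 0.0806 and did not pass, so the relations that passed were not shown to be particular to their scores.

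**Figure D4:**
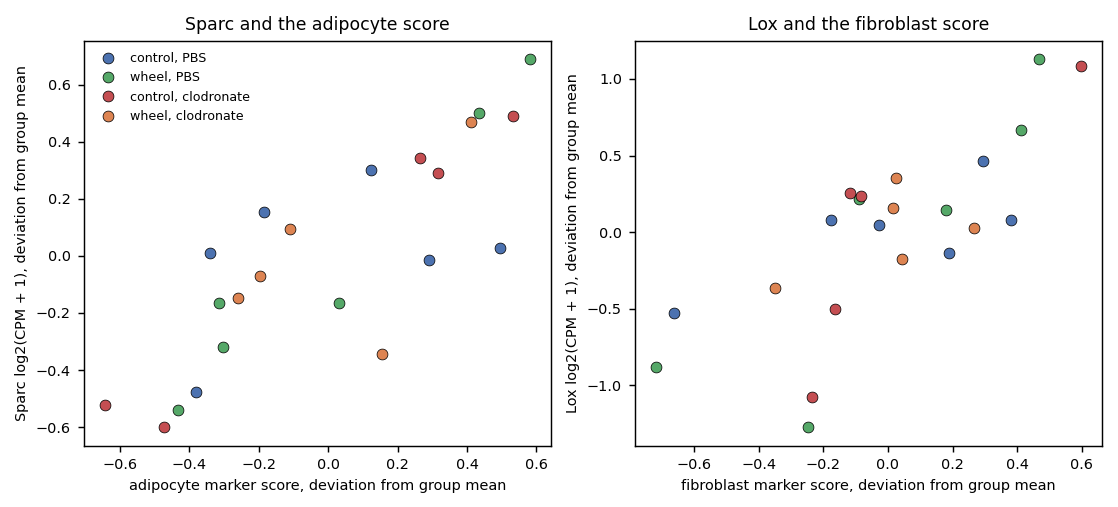
Deviations from the group means, on the log2 scale, of Lox against the fibroblast score and of Sparc against the adipocyte score, 1 point per mouse and 22 mice. Lox follows the fibroblast score with r 0.77 and Sparc the adipocyte score with r 0.82.

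The macrophage score had an r of 0.59 with Tgfb1 (rho 0.59, permutation p 0.0133, adjusted p 0.134). The neutrophil and monocyte score had an r of 0.55 with Tgfb1 but a rho of 0.69 (adjusted p 0.0765 for rho), and an r of 0.59 with Spp1 (rho 0.60, adjusted p 0.0806 for r). The score for dividing cells had an r of 0.63 with Spp1 (rho 0.61, permutation p 0.00215, adjusted p 0.0806). No r is given for the lymphocyte score, since its mice fell into separate clusters. The skeletal muscle score, which was spread without such a gap, was added later, making 144 relations, of which the same 2 passed and 0 of the 9 with muscle did. The largest of those were Tgfbi with an r of 0.56 (rho 0.66, permutation p 0.0167, adjusted p 0.135) and Sparc with -0.47 (rho -0.47, permutation p 0.0440, adjusted p 0.212). Neither library measure had a relation with a member that passed, the largest being the reads of the library with Thbs1, with an r of -0.48 (permutation p 0.0202, adjusted p 0.143).

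The genes most like a member were those with the highest r over the 22 mice, group means removed, among about 10102 genes with a mean of at least 5 CPM. The highest of so many values is large by selection alone, and none of these relations was tested. For Fn1 they were Rab14 (r 0.80), Eif2b2 (0.77) and Ncln (0.75), and for Tnc Hells (0.77), Mink1 (0.76) and Gm15710 (0.75). Postn was most like Col3a1 (0.88), Tcim (0.75) and Eln (0.73), of which Col3a1 and Eln are matrix genes. Spp1 was most like Tnfaip2 (0.91), Ms4a6d (0.90) and Smyd4 (0.87), with its 10 mice at the floor among the points. For Thbs1 the nearest were Abcb1b (0.78), Fuca2 (0.75) and Faim (0.73), and for Lox they were Dpt (0.89), Sptbn1 (0.89) and Ehd2 (0.86). Sparc was most like Col4a1 (0.90), which codes for a basement membrane collagen, Adgrl4 (0.89) and Tmem184c (0.88). Tgfb1 had Bola2 (0.87), Nfatc3 (0.87) and Vps16 (0.82), and Tgfbi had F2rl1 (0.86), Rab7b (0.85) and Lgalsl (0.85).

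Whether clodronate had lowered the macrophages was read from 10 macrophage markers, among them Adgre1, Cd68 and Csf1r, none of which was at the floor in any mouse. Their score was 5.13 ± 0.41 (SD, n = 12) with PBS and 4.90 ± 0.41 (SD, n = 10) with clodronate, and all 10 markers had a negative mean difference, 2 with an unadjusted p under 0.05 and 0 called by limma. In control mice 10 of 10 markers were negative, beside 65.4% of all genes, and in wheel-running mice 7 of 10, beside 49.9%. A depletion was thus not shown by these markers at the threshold used. The 3 lymphocyte-rich clodronate mice had the highest scores of the clodronate mice, 5.24 to 5.48, and the other 7 had 4.31 to 4.99. Without the 5 lymphocyte-rich mice the score was 5.13 ± 0.45 (SD, n = 10) with PBS and 4.69 ± 0.27 (SD, n = 7) with clodronate. The summed level of the list ran from 266 to 664 CPM with PBS and from 269 to 718 CPM with clodronate, with Lyz2 its most abundant gene at 51.7 to 334 CPM. The fibroblast list had 8 of 8 markers negative for the mean of clodronate against PBS, beside 57.4% of all genes, with a median of -0.24. Of the 9 members 7 were negative there, Fn1, Postn and Sparc among them. From mouse to mouse the r with the fibroblast score was 0.26 for Fn1, 0.17 for Postn, 0.61 for Sparc and 0.77 for Lox, and only that of Lox passed. Of the fibroblast list 1 gene, Col6a3, was called. Col6a3 was at -0.89 with an adjusted p of 0.0181 and stayed negative, but was not called under 3 of the 11 other settings, the replicate block (0.0874) and the fits without the 5 lymphocyte-rich (0.0952) or the 5 muscle-rich mice (0.584), or without control mouse 2 (0.0517) or 3 (0.0530) with clodronate. In those fits the log2 change of Col6a3 was -0.94 to -0.84. In control mice 5 of the 8 fibroblast markers were negative, beside 65.4% of all genes, and in wheel-running mice 8 of 8, beside 49.9%. The summed level of the fibroblast list had a median of 3102 CPM with PBS and 2445 CPM with clodronate. Gsn was its most abundant gene at 1112 to 4685 CPM, and none of the 8 was at the floor. The part of fibroblast content or of macrophage content in the values of the members was not tested.

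The other marker lists were read for the same contrast, the mean of clodronate against PBS. The median log2 change was -0.22 over 8 endothelium genes, -0.22 over 8 genes of smooth muscle and pericytes, -0.21 over 8 adipocyte genes and 0.21 over 8 epithelium genes. It was 0.045 over the 6 neutrophil and monocyte genes tested of 8, -0.30 over the 2 platelet genes tested of 6, and -0.22 over 8 genes of dividing cells. It was 0.87 over 11 lymphocyte genes and 1.54 over 8 skeletal muscle genes, and 0 genes of these lists were called. Some of these means join opposite directions. The lymphocyte list had a median of -0.36 in control mice (10 of 11 negative) and 2.10 in wheel-running mice (11 of 11 positive), the list of dividing cells -0.73 and 0.29, and the neutrophil and monocyte list -0.23 and 0.55. The markers of fat were present in every mouse, with a summed level of the adipocyte list of 5805 to 19813 CPM with Cfd its most abundant gene, and Krt14 of the epithelium list was present at 26.4 to 1946 CPM.

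Around the members, 7 lists of TGF-beta and matrix genes were read from the fit for the mean of clodronate against PBS. Over all genes tested 57.4% were negative there, 0.205% were called and 10.4% had an unadjusted p under 0.05. The ligand list, with the proteins that hold TGF-beta latent, had 13 genes with a median of -0.0034 and 0 called, and Ltbp3 (-0.34) and Nrros (-0.48) had the smallest p. The list of receptors and SMAD mediators had 8 genes with a median of -0.12 and 0 called, with Acvrl1 at -0.29 and Smad3 at -0.24, which were at 0.0095 and 0.011 without the 5 muscle-rich mice. The inhibitors and feedback genes numbered 11, with a median of -0.0027 and 0 called, and Smurf2 was at -0.39 and Dcn at -0.25. The target genes numbered 15, with a median of -0.13 and 0 called, 4 of them lower and 1 higher at an unadjusted p under 0.05. Among them the fibrillar collagens Col3a1 and Col1a1 were at -0.77 (adjusted p 0.102) and -0.59 (adjusted p 0.387).

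The other matricellular proteins and glycoproteins gave 19 tested genes of 20, with a median of -0.24 and 0 called, 5 of them lower at an unadjusted p under 0.05. Fbn1, which codes for fibrillin 1, was at -0.78 with an adjusted p of 0.0527, and Lum, which codes for lumican, at -0.57 with an adjusted p of 0.0997. The 13 receptors for the members, integrins and others, had a median of -0.031 and 0 called, with Cd36 at -0.42 and Itgb1 at -0.22. The list for crosslinking and processing of the matrix held 15 genes, with a median of -0.36, 14 of 15 negative and 1 called. Over all genes 57.4% were negative and 0.205% called. In control mice 12 of the 15 were negative (median -0.20), beside 65.4% of all genes, and in wheel-running mice 15 of 15 (median -0.57), beside 49.9%. The called gene was Serpinh1, which codes for the collagen chaperone HSP47 and fell by 0.99 ± 0.19 (SE) on the log2 scale, with an adjusted p of 0.0228. Its level ran from 41.8 to 195 CPM with PBS and from 38.9 to 88.9 CPM with clodronate, and it was not called under 7 of the 11 other settings tried or when any of 7 mice was left out. Those were mice 1 and 3 of control with PBS, mouse 6 of wheel with PBS, mice 2 and 3 of control with clodronate and mice 2 and 3 of wheel with clodronate, with adjusted p values of 0.0519 to 0.0691. In all of the fits where the call was lost, the log2 change of Serpinh1 was -0.99 to -0.92. Loxl1, the lysyl oxidase relative with the smallest p, was at -0.47 with an adjusted p of 0.0836. No gene of these 7 lists was called in any of the other 6 comparisons.

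**Figure D5:**
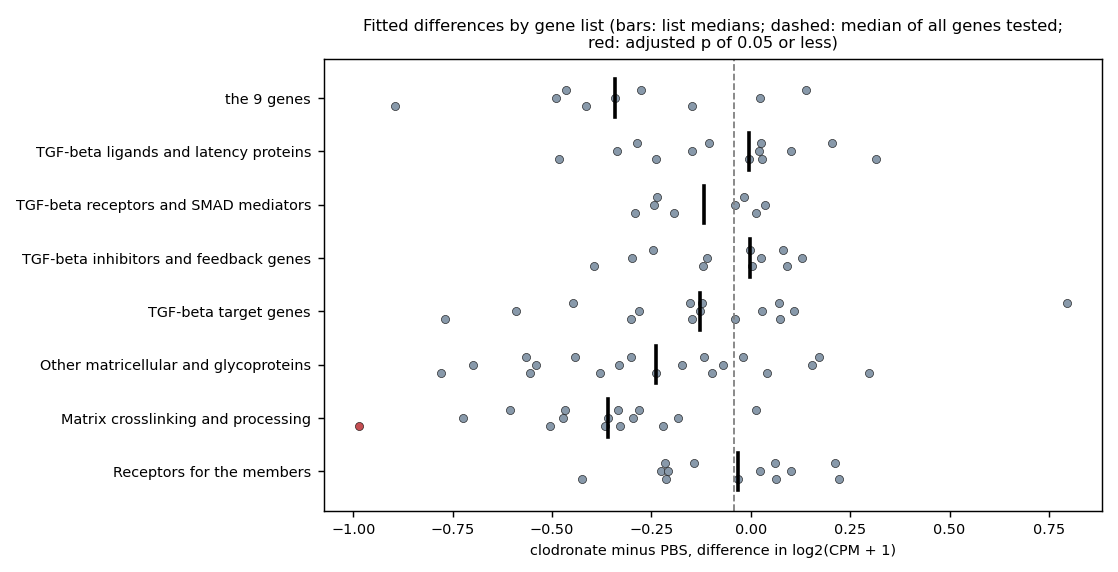
log2 change for the mean of clodronate against PBS of every tested gene in the members and the 7 pathway lists, 1 point per gene, with the median of each list; red marks an adjusted p of 0.05 or less and the dashed line is the median of all genes tested. The members have a median of -0.34 and the crosslinking list -0.36, beside -0.042 over all genes tested.

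By the annotation (GENCODE M21, GRCm38) the 9 members lie on 9 different chromosomes, so no 2 are neighbours. Spp1 is the shortest, with a span of 5933 bases on chromosome 5 (104435118 to 104441050, plus strand), and Tnc the longest, with 87231 bases on chromosome 4 (63959785 to 64047015, minus strand). Fn1 spans 67681 bases on chromosome 1 (71585520 to 71653200, minus strand), and its longest coding transcript has 46 exons. Genes that overlap a member, Apol7d, 8030451A03Rik, Gm29233 and Gm42793, were at the floor in all 22 mice, and AC161119.1, which overlaps Lox, had no value in the files.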

How the data were processed

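The authors deposited per-sample gene values as signal, made with STAR 2.5.3a on GRCm38. The values were read as CPM (reads scaled to all reads of a library) with values under 1 set to 1, which was inferred from the values. Summary entries of unmapped, multimapped, ambiguous and unassigned reads were left out of the gene table, and of 106 symbols listed more than once the entry with the highest mean was kept. Depth was 13256467 to 20484578 reads per library. Genes above the floor of 1 CPM in at least 5 mice (15138) were kept. limma 3.58.1 (R 4.3.3, variance trend) was fitted on log2(CPM + 1) with 4 group means, with Benjamini-Hochberg adjustment over all genes tested and calls at an adjusted p of 0.05; the procedure was tested on simulated data. Relations used deviations from group means and 100000 permutations within groups, two-sided (Python 3.11.15, numpy 2.4.6, pandas 2.3.3). Named from each pathway list were called genes, up to 3 in each direction, and otherwise the 2 with the smallest unadjusted p for the mean clodronate contrast. One marker of the lymphocyte list as first drawn up is not reported here and was left out of its score. The members, the lists and the tests were chosen with earlier results of these data known. Alternatives covered the pseudocount, the filter, the scaling, the variance trend, the samples in the fit, a replicate block, leaving out mice and, added later, a muscle score among the relations.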

Additional observations from a re-analysis of the deposited data

Results flagged for a closer look

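In each group of 5 or 6 mice, the gap between the highest or lowest mouse and its nearest neighbour was divided by the range of the group and compared with Dixon's 95% critical value. Chance flags about 1 in 20 groups, and 7 of 80 groups were past it, 2 of the 36 groups of members and 5 of the 44 groups of marker scores. For Postn, wheel-running mouse 3 with PBS was the lowest, with a ratio of 0.657. For Spp1, wheel-running mouse 5 with clodronate was the highest, with a ratio of 1.0, since the other 4 mice were at the floor. For the fibroblast score, control mouse 4 with clodronate was the highest, with a ratio of 0.817. For the macrophage score, wheel-running mouse 5 with PBS was the lowest, with a ratio of 0.725. For the lymphocyte score, control mouse 2 with PBS was the highest of its group, with a ratio of 0.953, and wheel-running mouse 3 with PBS of its own, with a ratio of 0.954. For the platelet score, control mouse 5 with PBS was the lowest, with a ratio of 0.667.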

How the results depend on the processing

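Of 63 log2 changes of members, each under 32 to 34 other settings, 36 never changed sign and 27 did at least once, and 0 of the 2107 values were called by limma. The reversed ones had a size of 0.59 or less over all mice. Fn1 for the mean of clodronate against PBS stayed negative under all 33 settings, from -0.64 to -0.41, with adjusted p values of 0.0597 to 0.768. Depth set how many reads the floor of 1 CPM stood for, 13 to 20, and Spp1 lay at it in 10 of 22 mice. Upper-quartile scaling shifted the median of all genes for the interaction by -0.10. Leaving out mice far from their group in the muscle score was not run, since 0 mice were that far. The cause of the changes below was not tested.

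With a pseudocount of 0.1 reversed log2 changes were 0.0039 for Tnc in the mean wheel effect. With a pseudocount of 5 the number of called genes was 3 for clodronate against PBS in wheel-running mice. Reversed log2 changes were -0.019 for Thbs1 in clodronate against PBS in control mice. With no pseudocount reversed log2 changes were 0.0090 for Tnc in the mean wheel effect. With no filter on low values the number of called genes was 3 for wheel against control with clodronate, 4 for clodronate against PBS in wheel-running mice, 2 for the mean wheel effect and 2 for the interaction. With a filter at a mean of 5 CPM the number of called genes was 0 for wheel against control with clodronate, 0 for clodronate against PBS in wheel-running mice and 54 for the mean of clodronate against PBS. With upper-quartile scaling the number of called genes was 3 for clodronate against PBS in wheel-running mice and 12 for the mean of clodronate against PBS. Reversed log2 changes were 0.071 for Postn and 0.068 for Tgfb1 in wheel against control with PBS, and 0.016 for Tnc in the mean wheel effect. With scaling to the reads in genes the number of called genes was 2 for clodronate against PBS in wheel-running mice and 15 for the mean of clodronate against PBS. Reversed log2 changes were 0.0022 for Postn and 0.0098 for Tgfb1 in wheel against control with PBS, 0.054 for Tgfbi in clodronate against PBS in wheel-running mice, and 0.020 for Tnc in the mean wheel effect. With no variance trend the number of called genes was 2 for clodronate against PBS in wheel-running mice and 20 for the mean of clodronate against PBS. With only the compared groups in the fit the number of called genes was 0 for wheel against control with clodronate and 0 for clodronate against PBS in wheel-running mice. Without the 5 lymphocyte-rich mice the number of called genes was 0 for wheel against control with clodronate, 0 for clodronate against PBS in wheel-running mice and 0 for the mean of clodronate against PBS. Reversed log2 changes were 0.11 for Postn and 0.061 for Tgfb1 in wheel against control with PBS, -0.30 for Tgfb1 and 0.060 for Thbs1 in wheel against control with clodronate, and -0.099 for Thbs1 in clodronate against PBS in control mice. They were also -0.75 for Tgfb1 and 0.069 for Tgfbi in clodronate against PBS in wheel-running mice, -0.32 for Tnc in the mean of clodronate against PBS, and -0.063 for Fn1 and -0.12 for Tgfb1 in the mean wheel effect. They were also -0.020 for Spp1 and -0.36 for Tgfb1 in the interaction. The number of called relations was then 0 in place of 2. Without the 5 mice with a muscle score above 7, an alternative chosen after seeing the data, the number of called genes was 0 for wheel against control with clodronate, 0 for clodronate against PBS in wheel-running mice and 0 for the mean of clodronate against PBS. Reversed log2 changes were 0.013 for Tgfb1 in wheel against control with PBS, 0.076 for Postn, 0.15 for Spp1 and 0.28 for Tgfbi in wheel against control with clodronate, and 0.50 for Lox, 0.075 for Sparc and -0.44 for Tgfbi in clodronate against PBS in control mice. They were also 0.0095 for Acvrl1, 0.022 for Lox, 0.011 for Smad3, 0.091 for Tgfb1, -0.26 for Tgfbi and -0.21 for Tnc in the mean of clodronate against PBS, 0.091 for Tgfbi and 0.48 for Tnc in the mean wheel effect, and 0.19 for Postn and 0.37 for Tgfbi in the interaction. The number of called relations was then 4 in place of 2.

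With the replicate number as a block the number of called genes was 0 for wheel against control with clodronate, 0 for clodronate against PBS in wheel-running mice and 11 for the mean of clodronate against PBS. Reversed log2 changes were -0.069 for Thbs1 in clodronate against PBS in control mice. The replicate numbers of the labels were not shown to pair the mice. Between control and wheel with PBS the mean r of same-numbered mice was -0.075, beside 0.015 for other numbers. Between control and wheel with clodronate it was 0.18, beside -0.042. Between PBS and clodronate it was 0.096 in control mice, beside -0.018, and 0.13 in wheel-running mice, beside -0.028. In these 4 comparisons r was over 0.1 in 1 of 6, 3 of 5, 2 of 5 and 4 of 5 pairs.

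With 1 mouse left out at a time the number of called genes ran from 0 to 240 for wheel against control with clodronate, from 0 to 38 for clodronate against PBS in control mice, from 0 to 51 for clodronate against PBS in wheel-running mice and from 12 to 146 for the mean of clodronate against PBS. For wheel against control with clodronate it was 174 without wheel-running mouse 1 with clodronate, 240 without mouse 2 and 0 without any other clodronate mouse. For clodronate against PBS in control mice it was 38 without control mouse 1 with clodronate and 1 without control mouse 5 or 6 with PBS. For clodronate against PBS in wheel-running mice it was 18 and 51 without wheel-running mice 1 and 2 with clodronate, 3 without control mouse 2 with PBS, 2 without control mouse 2 with clodronate and 0 without wheel-running mouse 2 with PBS or 5 with clodronate. For the mean of clodronate against PBS it was 146 without control mouse 1 with clodronate and 70 without control mouse 4 with PBS. It was 12 and 13 without control mice 2 and 3 with clodronate, 14 and 15 without control mice 1 and 3 with PBS, 13 without wheel-running mouse 6 with PBS, and 19 and 15 without wheel-running mice 2 and 3 with clodronate. Leaving out 1 mouse at a time reversed some small changes. Their range was -0.18 to 0.17 for Postn and -0.082 to 0.030 for Tgfb1 in wheel against control with PBS. It was -0.25 to 0.054 for Postn in wheel against control with clodronate. It was -0.45 to 0.086 for Lox, -0.20 to 0.38 for Tgfbi and -0.16 to 0.28 for Thbs1 in clodronate against PBS in control mice. It was -0.094 to 0.44 for Tgfb1 and -0.16 to 0.11 for Tgfbi in clodronate against PBS in wheel-running mice. It was -0.11 to 0.18 for Tgfbi and -0.082 to 0.28 for Tnc in the mean of clodronate against PBS. It was -0.0097 to 0.085 for Fn1, -0.16 to 0.019 for Postn, -0.089 to 0.15 for Thbs1 and -0.17 to 0.20 for Tnc in the mean wheel effect. It was -0.31 to 0.081 for Postn and -0.39 to 0.19 for Tgfbi in the interaction. Among list genes, Fbn1 was called under 8 of 33 settings, with adjusted p values of 0.0190 to 0.739, and Serpinh1 was not called under 14 of 33, with values of 0.00885 to 0.625. The fibroblast marker Col6a3 was not called under 5 of 33, with values of 0.0118 to 0.584. Where these calls were lost, the log2 change was -0.99 to -0.92 for Serpinh1 and -0.94 to -0.84 for Col6a3.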
